A study of Mus musculus with 6 samples.

Results

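The nuclear lamina and LINC genes encode the filament layer under the inner nuclear membrane, proteins that bind it there, and the bridges that join it to the cytoskeleton. The 10 genes Lmna, Lmnb1, Lmnb2, Lbr, Emd, Tmpo, Sun1, Sun2, Syne1 and Syne2 were taken by symbol from the 29955 gene rows of an RNA-seq table of mouse embryonic fibroblasts (MEFs). The table compared 3 libraries of Rnf40+/+ cells with 3 libraries of Rnf40-/- cells, all total RNA from primary MEFs at passage 3. Rnf40 encodes a subunit of the ubiquitin ligase that adds a single ubiquitin to histone H2B. The knockout MEFs carried Rnf40 alleles whose exons 3 and 4 were flanked by loxP sites, together with a tamoxifen-inducible Cre expressed from the Rosa26 locus. For the knockout, cells were kept in 250 nM 4-hydroxytamoxifen (4-OHT) for 5 days and then for 3 days without it. The labels attach this protocol, worded as the one for knockout, to the Rnf40+/+ libraries as well. The paper states that MEFs came from embryos homozygous for the loxP alleles with the transgene, without naming the Rnf40+/+ libraries there. Whether the Rnf40+/+ cells received 4-OHT, or carried the same alleles and transgene, was thus not given in the sources used here. Genotype and drug exposure therefore cannot be told apart. Nothing in the labels says that the libraries of a genotype came from separate embryos or cultures, and p-values therefore measure only the spread between these samples, which may be technical.

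Lamins are intermediate filament proteins: A-type lamins, lamin A and lamin C, are spliced from Lmna, and B-type lamins come from Lmnb1 and Lmnb2. The lamin B receptor (Lbr), emerin (Emd) and the lamina-associated polypeptide LAP2 (Tmpo) attach chromatin and the lamina to the inner membrane. SUN proteins span the inner membrane and bind the KASH domain of nesprins (Syne1, Syne2) in the outer membrane, forming the LINC complex, which in fibroblasts couples the nucleus to actin.

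Values are normalized counts, that is reads on a gene divided by the size factor of the library. The libraries held 17053436, 20781071 and 26344170 reads on genes in Rnf40+/+ and 18741606, 18115481 and 20495627 in Rnf40-/- cells. Compared over all genes, the third control library, the most deeply sequenced, stood further from the other controls (chi-square per gene 28.6 and 25.6) than these from each other (8.11), while the knockout libraries differed by 5.32 to 13.4 and libraries of different genotypes by 74.9 to 117. A deeper library gives a larger chi-square for the same difference. At this depth 3 reads, taken as the limit of detection for counting error only, correspond to a normalized count between 2.40 and 3.58, and every gene of the 10 lay far above it. Rnf40 itself had normalized counts of 1278, 1195 and 1096 in Rnf40+/+ and 439, 519 and 487 in Rnf40-/- cells. Each library labelled as knockout thus lay below each control library, with a log2 fold change of -1.30 ± 0.09 (SE, n = 3 per genotype; limma, Benjamini-Hochberg adjusted p = 4.25e-07). Rnf40 has a single row with no values per exon, so reads on the deleted exons were not seen apart from reads on the rest of the gene.

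All 10 genes were among the 16378 that passed the filter on low counts and were tested. By limma with a Benjamini-Hochberg adjusted p under 0.05, 3 were called higher in Rnf40-/- cells (Sun1, Syne1, Syne2), 5 were called lower (Lmna, Lmnb1, Lmnb2, Emd, Sun2), and 2 were not called (Lbr, Tmpo). Of all genes tested, 47.4% were called, 23.3% higher and 24.1% lower. Without the third control library 2 of the 10 genes were called higher and 5 lower, and the one no longer called was Syne1. The 6 libraries separated by genotype without overlap for 2 genes that were higher and 6 that were lower, against 27.8% and 28.7% of all genes tested. Their median change on the log2 scale was -0.25, against -0.0035 for all genes tested. None of the 10 passed the criteria the study used for regulated genes, a change of more than 1 on the log2 scale in either direction with a mean above 15 and an unadjusted p under 0.05, which 4.25% of the genes passed upward and 5.7% downward in the limma fit. In that fit 9 of the 10 had an unadjusted p under 0.05, and the count past the study criteria was also 0 with DESeq2 and with edgeR.

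**Figure D1:**
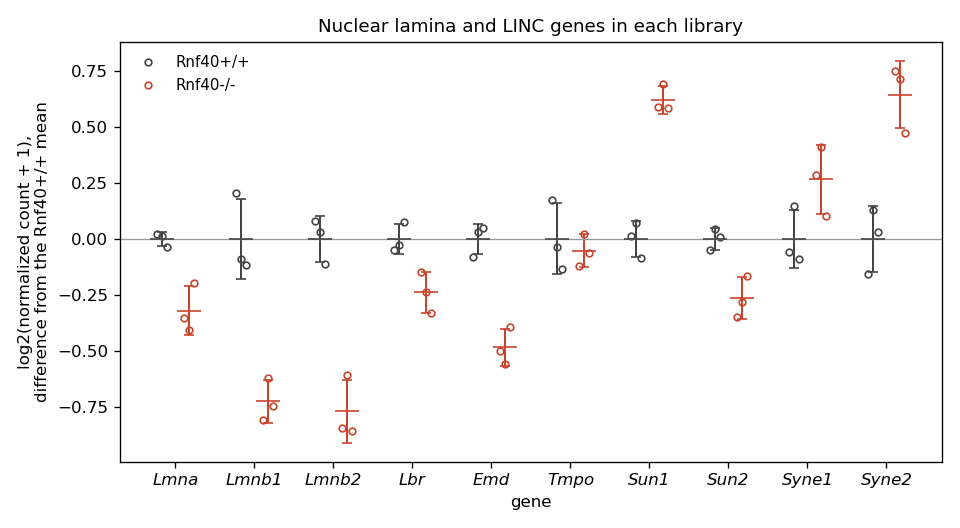
Each point is 1 library of Rnf40+/+ (grey) or Rnf40-/- (red) MEFs. The vertical axis is log2(normalized count + 1) minus the mean of the 3 Rnf40+/+ libraries for that gene, horizontal bars are group means and vertical bars the SD (n = 3). The red points of Lmna, Lmnb1, Lmnb2, Lbr, Emd and Sun2 lie below the grey ones, those of Sun1 and Syne2 above them, and those of Tmpo and Syne1 overlap them.

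All 3 lamin genes fell in Rnf40-/- cells, with larger estimates for the B-type genes than for Lmna. Lmna had normalized counts of 13590, 13478 and 13061 in Rnf40+/+ and 10460, 10089 and 11660 in Rnf40-/- cells. The control libraries lay close together and every knockout library was below them, the third knockout library being the nearest. The log2 fold change was -0.32 ± 0.07 (SE, n = 3 per genotype; limma, Benjamini-Hochberg adjusted p = 0.00272), and the knockout mean was 80.3% of the control mean. The table does not separate lamin A from lamin C.

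Lmnb1 had normalized counts of 502, 409 and 401 in Rnf40+/+ and 248, 283 and 259 in Rnf40-/- cells. The first control library was the highest, and the groups did not overlap. The knockout mean was 60.2% of the control mean, a log2 fold change of -0.72 ± 0.11 (SE, n = 3 per genotype; limma, Benjamini-Hochberg adjusted p = 0.000266), and without the first control library the log2 fold change was -0.62. Lmnb2, the gene of the other B-type lamin, had normalized counts of 410, 396 and 358 in Rnf40+/+ and 215, 254 and 213 in Rnf40-/- cells. Again each knockout library was below each control library. The knockout mean was 58.7% of the control mean, a log2 fold change of -0.77 ± 0.11 (SE, n = 3 per genotype; limma, Benjamini-Hochberg adjusted p = 0.00015).

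The ratio of 2 genes within a library does not depend on the size factor. The log2 ratio of Lmna to Lmnb1 was 4.76, 5.04 and 5.03 in Rnf40+/+ and 5.40, 5.16 and 5.49 in Rnf40-/- libraries. It was higher in each knockout library, and the ratio of normalized counts, not corrected for length, went from 30.8 in control to 40.8 in knockout cells. The difference of 0.41 had p = 0.1 in an exact two-sided permutation test, the smallest p that 3 against 3 libraries can give, and 0.133 after Benjamini-Hochberg adjustment over the 4 ratios tested. For Lmnb1 against Lmnb2 the log2 ratio differed by 0.045 between genotypes, with overlapping libraries (exact two-sided permutation p = 0.7, adjusted p = 0.7). Without the second control library this small difference changed sign, to -0.015.

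Among the genes of inner membrane proteins, Emd fell, while Lbr and Tmpo were not called. Emd had normalized counts of 2506, 2702 and 2736 in Rnf40+/+ and 1871, 1795 and 2014 in Rnf40-/- cells. All knockout libraries were below all control libraries, at 71.5% of the control mean. The log2 fold change was -0.48 ± 0.07 (SE, n = 3 per genotype; limma, Benjamini-Hochberg adjusted p = 0.000127). An annotated Emd transcript shares a stretch of 662 bases with a transcript of Eif1, a translation initiation factor gene, at 96.7% identity, and an annotated pseudogene overlaps Emd exons on the same strand. Eif1 had a mean normalized count of 5657 in control and 3569 in knockout cells, a log2 fold change of -0.66 (limma, Benjamini-Hochberg adjusted p = 9.51e-06). How reads of that stretch were assigned was not given in the sources used here, so the Emd values are uncertain to that extent.

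Lbr, whose product binds B-type lamins and heterochromatin, had normalized counts of 412, 418 and 449 in Rnf40+/+ and 384, 361 and 339 in Rnf40-/- cells. Every knockout library was below every control library, but by little. The log2 fold change was -0.24, with a 95% confidence interval from -0.44 to -0.03, and the limma test with Benjamini-Hochberg adjustment missed the threshold (adjusted p = 0.0553). Tmpo had normalized counts of 998, 862 and 805 in Rnf40+/+ and 814, 900 and 848 in Rnf40-/- cells. The knockout libraries lay inside the range of the control libraries, of which the first was the highest, as it was for the lamin genes. The log2 fold change of -0.05 had a 95% confidence interval from -0.25 to 0.14 (limma, Benjamini-Hochberg adjusted p = 0.659), and without the first control library it was 0.03. The table gives no separate values for the LAP2 isoforms, of which the alpha form is nucleoplasmic and the others are membrane proteins.

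The SUN pair moved in opposite directions. Sun1 had normalized counts of 1776, 1852 and 1659 in Rnf40+/+ and 2646, 2843 and 2639 in Rnf40-/- cells. The knockout libraries were well above the control libraries, and the knockout mean was 154% of the control mean. Its log2 fold change was 0.62 ± 0.07 (SE, n = 3 per genotype; limma, Benjamini-Hochberg adjusted p = 1.56e-05). A separate row under Unc84a, an older symbol of Sun1, was looked up after its values were seen and held 70.5, 72.4 and 55.1 in Rnf40+/+ and 104, 87.7 and 101 in Rnf40-/- cells. These low counts were also higher in each knockout library, with a log2 fold change of 0.56 ± 0.19 (SE, n = 3 per genotype; limma, Benjamini-Hochberg adjusted p = 0.025). That call was lost without the third control library (0.44) and without the first (0.52) or the third (0.54) knockout library, and adjusted p ranged from 0.00898 to 0.0919 over 17 alternatives of limma, DESeq2 and edgeR with Benjamini-Hochberg adjustment.

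Sun2 had normalized counts of 1477, 1579 and 1538 in Rnf40+/+ and 1203, 1260 and 1366 in Rnf40-/- cells. The groups did not overlap, the third knockout library being the nearest to the controls. The knockout mean was 83.4% of the control mean, a log2 fold change of -0.26 ± 0.07 (SE, n = 3 per genotype; limma, Benjamini-Hochberg adjusted p = 0.00915). Without the first knockout library the log2 fold change was -0.22 and the call was lost (limma, Benjamini-Hochberg adjusted p = 0.0625, with a range from 0.00493 to 0.11 over 17 alternatives). Set against each other, the log2 ratio of Sun1 to Sun2 was 0.27, 0.23 and 0.11 in Rnf40+/+ and 1.137, 1.174 and 0.950 in Rnf40-/- libraries. The log2 ratio was higher in each knockout library than in any control library. It is not corrected for length, so it shows the change and not which gene stood higher. The ratio of normalized counts went from 1.15 to 2.12, a log2 difference of 0.89 with the smallest p that the exact two-sided permutation test can give, 0.1 (0.133 after Benjamini-Hochberg adjustment over 4 ratios).

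Both nesprin genes were called higher, Syne2 with a clear gap between genotypes and Syne1 without one. Syne1, which encodes nesprin-1, had normalized counts of 1332, 1536 and 1300 in Rnf40+/+ and 1687, 1842 and 1488 in Rnf40-/- cells. The third knockout library lay below the second control library, so the groups overlapped. The log2 fold change was 0.27 ± 0.09 (SE, n = 3 per genotype; limma, Benjamini-Hochberg adjusted p = 0.0307). The call was lost without the first (log2 fold change 0.24) or the third (0.22) control library and without the first (0.26) or second (0.19) knockout library, and adjusted p ranged from 0.00408 to 0.148 over 17 alternatives of limma, DESeq2 and edgeR with Benjamini-Hochberg adjustment.

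Syne2, which encodes nesprin-2, had normalized counts of 105, 128 and 120 in Rnf40+/+ and 198, 193 and 163 in Rnf40-/- cells. Every knockout library was above every control library, on 88 to 194 reads per library. The knockout mean was 157% of the control mean, a log2 fold change of 0.64 ± 0.15 (SE, n = 3 per genotype; limma, Benjamini-Hochberg adjusted p = 0.00315). The log2 ratio of Syne1 to Syne2 was 3.66, 3.58 and 3.44 in Rnf40+/+ and 3.09, 3.25 and 3.19 in Rnf40-/- libraries. It was lower in each knockout library, with a difference of -0.38 (exact two-sided permutation p = 0.1, adjusted p = 0.133 over 4 ratios).

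The sum of normalized counts over all genes was lower in the knockout libraries, from 18906100 to 19351900, against 20365900 to 21191700 in the control libraries. Scaling by total reads, an alternative chosen after seeing the data, shifts the median log2 fold change of all genes by 0.12. Under it 5197 genes were called higher and 2955 lower, against 3809 and 3955 in the limma fit of the deposited values. All the lamin genes and Emd were then still called lower, Lmna with a log2 fold change of -0.19 (limma, Benjamini-Hochberg adjusted p = 0.0281, with a range from 5.43e-05 to 0.0281 over 17 alternatives), and Sun1, Syne1 and Syne2 higher. Lbr, not called in either, went from -0.24 to -0.11 (limma, Benjamini-Hochberg adjusted p = 0.348). The exceptions were Sun2, at -0.14 and no longer called (limma, Benjamini-Hochberg adjusted p = 0.11), and Tmpo, whose log2 fold change turned from -0.05 to 0.07 with no call in either.

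For levels of different genes, the normalized count was divided by the length of the longest annotated coding transcript in kb. Which transcripts MEFs used was not measured, so these are approximate levels. Lmna stood highest at 4238 per kb in Rnf40+/+ cells, followed by Emd at 1660, Sun1 at 426, Sun2 at 403, Tmpo at 235, Lmnb1 at 154, Lbr at 120, Lmnb2 at 110, Syne1 at 49.3 and Syne2 at 5.43. Among neighbours in this order, the control libraries of Sun1 and Sun2 overlapped, and those of Lbr and Lmnb2 nearly met at 116 per kb. In Rnf40-/- cells the order began with Lmna at 3402, Emd at 1187, Sun1 at 655, Sun2 at 336 and Tmpo at 226 per kb, with Sun1 and Sun2 now apart in every library. Lbr at 102 per kb then came before Lmnb1 at 92.5, with overlapping libraries, and Lmnb2 at 64.4 overlapped Syne1 at 59.3, while Syne2 was lowest on this length at 8.51. For Syne1 the longest transcript has 28204 bases and the shortest coding one 4819. Per kb of the latter its control level would be 288, below Tmpo on its shortest at 584, but above Lmnb2, Lmnb1 and Lbr on theirs. For Syne2 the annotated coding transcripts range from 440 to 21704 bases, and per kb of the shortest its level would be 268 in control and 420 in knockout cells. On shortest coding transcripts, Sun1 at 4554 and Sun2 at 4400 per kb in control cells would also stand above Emd at 3448. Lmnb2, at 236 per kb in control and 138 in knockout cells on that length, would stand above Lmnb1 and Lbr. The places of both nesprin genes at the low end of the order therefore depend on the length used. So do those of Emd as second and of Lmnb2 below Lmnb1 and Lbr. With the length of all annotated exons of a gene together, an alternative chosen after the levels were seen, 2 pairs of neighbours changed places in control cells. Sun2 at 308 per kb then stood above Sun1 at 232, and Lmnb1 at 148 above Tmpo at 133. In knockout cells Sun1 at 357 per kb stayed above Sun2 at 257, while Syne1 at 53.7 came just above Lmnb2 at 53.1. As a share of the 3 lamin genes per kb of the longest transcript, Lmna made up 94.2% ± 0.45 in control and 95.6% ± 0.59 in knockout cells (SD, n = 3). Lmnb1 went from 3.41% to 2.61% and Lmnb2 from 2.44% to 1.82% of that sum. On shortest coding transcripts Lmnb1 went from 0.881% to 0.669% and Lmnb2 from 1.35% to 1.00%. Which of these B-type genes had the larger share thus depended on the length used. Sun1 made up 51.4% ± 1.42 of the SUN pair per kb of the longest transcript in control and 66.1% ± 1.88 in knockout cells (SD, n = 3). With all annotated exons as the length these shares were 42.9% ± 1.39 and 58.1% ± 2.04 (SD, n = 3). Which of the pair stood higher in control cells thus depended on the length used, whereas the share of Sun1 was higher in each knockout library with these lengths.

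**Figure D2:**
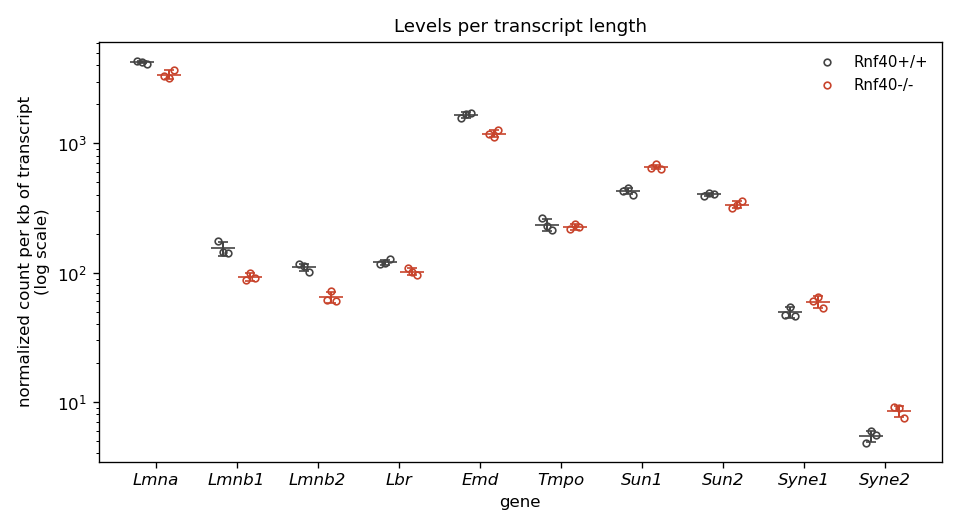
Normalized count per kb of the longest annotated coding transcript, on a log scale, for each of the 10 genes in Rnf40+/+ (grey) and Rnf40-/- (red) MEFs. Points are libraries, horizontal bars means and vertical bars the SD (n = 3). Lmna and Emd stand highest, near 4238 and 1660 per kb in control cells, and Syne2 lowest on this length, near 5.43.

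Of 5 genes of enzymes that farnesylate, cleave and methylate lamins, all tested, 1 was called lower, Fntb, a farnesyltransferase subunit gene, with a log2 fold change of -0.34, and the median was -0.10. Of all genes tested 24.1% were called lower, so this count is near the background. Without the second or the third control library, or without the first or second knockout library, that count was 0, as it was with scaling by total reads (Fntb at -0.22). Without these libraries the log2 fold change of Fntb was -0.37, -0.26, -0.26 and -0.35, in that order. The count called higher, 0 in the fit of the deposited values, was 1 without the second control library and 1 with scaling by total reads. Icmt, a methyltransferase gene with the highest normalized count of the list in every library, was not called. Zmpste24, the protease that matures lamin A, had a mean of 1788 normalized counts in control and 1949 in knockout cells, with a 95% confidence interval of the log2 fold change from -0.04 to 0.29.

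A list of 11 other genes held those of LEM domain proteins, of inner nuclear membrane proteins and of the torsin cofactors, not all of which are membrane proteins of the nucleus. Of these 11, 3 were called higher and 6 lower, against 23.3% and 24.1% of all genes tested. The count called higher is near that background. The median log2 fold change of the list was -0.30. Tor1aip2, the gene with the highest normalized count of the list in every library, which encodes the torsin cofactor LULL1 of the endoplasmic reticulum, had normalized counts of 3245, 3503 and 3157 in Rnf40+/+ and 2317, 2165 and 2278 in Rnf40-/- cells. Each knockout library was below each control library, with a log2 fold change of -0.55 (limma, Benjamini-Hochberg adjusted p = 3.19e-05). Tmem43, which encodes the emerin-binding protein LUMA, fell by 0.50 and Lemd2 also fell by 0.50 on the log2 scale. These and Nemp1 and Ankle2 were picked from the list after their values were seen. Nemp1, listed in the table as Tmem194, fell by 1.00 on that scale, and Ankle1, with the largest fall of the list, had a log2 fold change of -1.44 from a control mean of 58.4 normalized counts. Lemd1 showed the largest rise, from 2.39, 3.06 and 7.99 in Rnf40+/+ to 37.7, 51.1 and 46.3 in Rnf40-/- cells. With 2, 3 and 10 reads in the control libraries, Lemd1 passed the filter on low counts only through the knockout libraries, and its log2 fold change depends on the pseudocount, from 1.94 with 10 to 3.49 with 0.1. With at least 10 reads required in every library Lemd1 was not tested, and 2 genes of the list were called higher. Ankle2, with a LEM domain as well, rose by 0.38.

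Of 9 listed SUN, KASH and torsin genes beyond the 10, 8 had a row and 4 were tested, of which 1 was called in each direction. These counts are near the background, since 23.3% of all genes tested were called higher and 24.1% lower. Without the third control library, and with scaling by total reads, 2 were called higher. Tor1b, encoding a torsin ATPase of the perinuclear space, had normalized counts of 1367, 1507 and 1549 in Rnf40+/+ and 2448, 2458 and 2543 in Rnf40-/- cells. All knockout libraries were higher, with a log2 fold change of 0.75 (limma, Benjamini-Hochberg adjusted p = 3.62e-06). Spag4, a SUN domain gene, fell by 0.81 from a control mean of 72.2 normalized counts. The germ-cell SUN gene Sun5 had 0 reads in each library, and Sun3, Ccdc155 and Syne4 were too low to be tested.

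Of 8 genes whose products link the lamina to chromatin, 1 was called higher and 5 lower, against 23.3% and 24.1% of all genes tested. Their median log2 fold change was -0.38. Vrk1, a kinase of the chromatin-bridging protein BAF, had normalized counts of 327, 275 and 245 in Rnf40+/+ and 134, 149 and 106 in Rnf40-/- cells. The groups were far apart, with a log2 fold change of -1.12 (limma, Benjamini-Hochberg adjusted p = 0.000119). Banf1, which encodes BAF itself and whose product binds LEM domains, fell by 0.43. Cbx3, encoding a heterochromatin protein 1 isoform, fell by 0.55, Prr14, encoding a protein that tethers heterochromatin to the lamina, fell by 0.39 and Hdac3 fell by 0.37 on the log2 scale. Gmcl1, encoding a germ cell-less homologue that binds LAP2, rose by 0.36. Cbx5, with the highest mean normalized count of the list over the 6 libraries, had a mean of 2275 in control, where Cbx3 was higher at 2428, and of 2104 in knockout cells, and was not called.

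Among 29 nucleoporin genes tested of 30 listed, 5 were called higher, 11 lower and 13 not, and the median log2 fold change was -0.011. The shares over all genes tested were 23.3% higher and 24.1% lower. With scaling by total reads, which shifts all genes alike, the split was 10 higher and 7 lower. Over all genes tested that scaling gave 5197 higher and 2955 lower. Without the third control library, or any single knockout library, 3 were called higher. Ahctf1, encoding ELYS, which seeds pores on chromatin, had the largest rise, 0.62 on the log2 scale. Ndc1, listed as Tmem48 and encoding a transmembrane anchor of the pore, had the largest fall, -0.95. Tpr, the pore basket gene, with the highest mean normalized count of the list in both genotypes, had means of 3827 normalized counts in control and 3898 in knockout cells.

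Lamin B1 is known to decline in senescent fibroblasts, which no longer divide, and genes of the cell cycle were set beside it. All 10 proliferation genes tested were called lower, against 24.1% of all genes tested, with a median log2 fold change of -2.41. Their summed normalized counts were 7268, 5908 and 6207 in Rnf40+/+ and 2102, 2010 and 1924 in Rnf40-/- cells. The first control library was the highest for this sum, as it was for Lmnb1 and Tmpo. Top2a, the DNA topoisomerase of dividing cells, had 1456, 988 and 993 in control and 118, 136 and 112 in knockout libraries, the first control library again being the highest. Ccnb1, encoding cyclin B1, had the largest fall, -3.24, and Pcna, with the highest mean normalized count of the list in both genotypes, fell by 0.38. With a pseudocount of 10 the fall of Top2a (-3.11) was larger than that of Ccnb1 (-2.97). Of 4 CDK inhibitor genes, 3 were called lower as well. Cdkn1a, encoding p21, fell by 0.66, Cdkn1b fell by 0.79 and Cdkn2a, the p16 and ARF locus, fell by 0.99 on the log2 scale, while Cdkn2b was not called. With scaling by total reads 1 of the 4 was called higher. The part of proliferation in the lamin values was not tested.

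The cell type named in the labels was checked against markers, and in bulk RNA fewer cells of a type and less RNA per cell cannot be told apart. All 8 fibroblast markers were expressed, and 7 were called lower in knockout cells, against 24.1% of all genes tested. Their median log2 fold change was -0.78. The other, Dcn, was not called, with a mean of 1371 normalized counts in control and 1540 in knockout cells. Their summed normalized counts were 354229, 362706 and 413580 in Rnf40+/+ and 190541, 185267 and 199369 in Rnf40-/- cells. In control cells Col1a2 had the highest mean normalized count, 116406, above Col1a1 at 101907 and Vim at 95326, and in knockout cells Vim had the highest, 79607. The fall was largest for Col1a2 (-2.26), and the call for Vim (-0.26) was lost in 10 of 17 alternatives. Among these, its log2 fold change was -0.21 without the first and -0.22 without the second control library, and -0.25, -0.23 and -0.30 without the first, the second and the third knockout library.

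Of 4 endothelial markers tested, 3 were called higher, Cdh5, Pecam1 and Kdr, the last by 1.56 on the log2 scale. The share called higher over all genes tested was 23.3%. Cdh5 had 1 to 5 reads in each control library and 25 to 38 in each knockout library, and Pecam1 had 3 to 4 and 20 to 34. Both passed the filter on low counts only through the knockout libraries, and their log2 fold changes depend on the pseudocount, from 1.70 to 3.78 for Cdh5 and from 1.43 to 2.86 for Pecam1 between pseudocounts of 10 and 0.1. With at least 10 reads required in every library neither was tested, while Kdr was still called higher. Their list summed to 143, 46.9 and 53.5 normalized counts in Rnf40+/+ and 178, 265 and 173 in Rnf40-/- cells. The sum of the first control library was mostly Tek, at 115 in that library and 11.2 and 16.0 in the other controls. Tek had the highest mean in control cells (47.3, against 27.4 for Kdr) and Kdr in knockout cells (84.5, against 61.6 for Tek). Of 5 macrophage markers tested, 1 was called higher, Ptprc by 1.37, a count near the 23.3% of all genes tested. The list summed to 1346, 1128 and 1612 in control and 1260, 1276 and 1295 in knockout libraries. Itgam had the highest mean of it in control cells (389, against 371 for Csf1r) and Csf1r in knockout cells (317, against 299.8 for Itgam). Among control libraries Itgam was above Csf1r only in the first (519 against 356). In the third knockout library Itgam was also above Csf1r (325 against 319). Epithelial markers summed to 93.2, 30.6 and 53.5 in control and 54.0, 40.7 and 34.9 in knockout libraries, and the 2 tested were not called. Krt8 and Krt18 both had a mean of 23.0 in control cells, most of the Krt8 counts coming from the first library at 58.5, and Krt18 was highest in knockout cells at 16.4. Of the skeletal muscle list Myod1 had 0 reads throughout, and Acta1, which made up nearly all of the counts, had 4449, 1905 and 1592 in control and 453, 409 and 440 in knockout libraries. Its first control library stood out, the same that was highest for the lamin genes and Tmpo. Of 3 neural markers tested, 1 was called higher, Stmn2 by 0.48, also near the 23.3% of all genes tested. The neural list, in which Tubb3 had the highest value in every library, summed to 3349, 2035 and 2009 in control and 2139, 2232 and 2360 in knockout libraries. The part of these cell types in the lamina and LINC values was not tested.

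The genes most like 3 of the 10 over the 6 libraries were sought among 11549 genes with a mean above 100, by Pearson correlation of log2(normalized count + 1), as a description only, since the genotypes form separate clusters. For Lmnb1 they were Mllt6 (0.997), Ring1 (0.995) and Pomgnt1 (0.995). For Lmna they were AK195420 (0.998), Usp5 (0.996) and Siah2 (0.996). For Syne2 they were AK160668 (0.997), Shroom2 (0.997) and Bmp2k (0.996).

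In the mm9 annotation Sun1 lies at chr5:139676591-139725794 on the plus strand and Sun2 at chr15:79554500-79572966 on the minus strand. Lmna lies at chr3:88285070-88313878, Lmnb2 at chr10:80363948-80380990 and Tmpo at chr10:90610316-90634759, all on the minus strand, and Emd at chrX:71500026-71506887 on the plus strand. Exons of Tmpo and of Sun2 each overlap those of a long noncoding RNA gene on the opposite strand, by up to 244 and 136 bases. The library kit keeps strand, but whether the counting used it was not given in the sources used here. Similar stretches, where reads could be shared, were also found in 1 annotated Lmnb2 transcript (60 to 100 bases, with 14 other genes), in 1 of Syne1 (70 to 101 bases, with 3 other genes) and in 1 of Sun1 (61 bases, with 1 other gene).

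Promoter windows, from 250 bases before to 50 after a transcript start, came from the RefSeq table of GRCm38.p6, whose coordinates differ from those of mm9. It held 15 windows for 9 of the 10 genes and none for Lmnb1, which was thus not searched. The 3 motifs were searched on both strands, as letters only: the cell cycle gene homology region CHR (TTTGAA or TTCGAA), E2F sites (TTTGGCGC, TTTCCCGC, TTTCGCGC or TTTGCCGC) and the CCAAT box. CHR letters were in 3 windows (19.2% of all 32851 windows), E2F letters in 1 (2.26%) and CCAAT in 7 (37.4%). A match is a description of these letters, not of binding. Shown are a window of Sun1 and the window of Sun2, because the pair moved in opposite directions. Also shown is the Tmpo window with CHR and E2F letters, because Tmpo was not called beside falling proliferation genes. The other Tmpo window, at another transcript start and not shown, has 2 CCAAT matches and no CHR or E2F letters. Capitals mark the motifs, in the direction of the gene: CCAAT, or ATTGG on the reverse strand, in Sun1 and Sun2, TTCAAA, the reverse of a CHR, in Sun2, and TTTCCCGC and TTTGAA in Tmpo. The windows are chr5:139200387-139200686 (plus strand), chr15:79742487-79742786 (minus strand) and chr10:91170501-91170800 (minus strand) of GRCm38.p6.
Sun1: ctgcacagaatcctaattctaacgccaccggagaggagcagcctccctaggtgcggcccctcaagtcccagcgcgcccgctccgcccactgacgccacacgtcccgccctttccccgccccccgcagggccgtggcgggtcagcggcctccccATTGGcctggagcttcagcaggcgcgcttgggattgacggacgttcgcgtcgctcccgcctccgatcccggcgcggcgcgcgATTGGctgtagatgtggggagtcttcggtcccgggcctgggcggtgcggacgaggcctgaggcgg
Sun2: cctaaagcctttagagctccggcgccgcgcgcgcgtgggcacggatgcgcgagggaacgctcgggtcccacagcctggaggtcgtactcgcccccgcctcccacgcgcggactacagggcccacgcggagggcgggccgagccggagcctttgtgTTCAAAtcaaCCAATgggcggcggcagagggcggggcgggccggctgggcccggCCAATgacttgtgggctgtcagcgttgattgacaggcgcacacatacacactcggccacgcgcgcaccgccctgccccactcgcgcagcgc
Tmpo: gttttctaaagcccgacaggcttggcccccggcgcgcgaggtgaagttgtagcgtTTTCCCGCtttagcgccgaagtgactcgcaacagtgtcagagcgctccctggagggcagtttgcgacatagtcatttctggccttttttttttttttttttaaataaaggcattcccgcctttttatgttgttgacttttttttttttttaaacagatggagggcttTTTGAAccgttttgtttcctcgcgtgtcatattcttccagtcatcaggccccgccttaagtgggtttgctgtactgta
Sun1 and Sun2 both carry CCAAT letters, and the Sun2 window has CHR letters in addition, as do a window of Lbr and 1 of Tmpo. CHR letters in 3 of 15 windows are near the 19.2% of all windows.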

How the data were processed

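Total RNA of 6 MEF libraries, 3 per genotype, was prepared with a strand-keeping kit and sequenced by the authors. Per the labels, Bowtie2 2.1.0 and DESeq 1.14.0 were used with mm9. The deposited signal values are gene counts that the authors divided by a size factor per library. Dividing by the value of 1 read gave whole reads for 100% of values (tolerance 0.01), so depth was known. The tool that counted reads per gene was not given in the sources used here.

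Genes were filtered with filterByExpr of edgeR 4.0.16 on the recovered reads (16378 of 29955 kept; 7410 had no read). log2(normalized count + 1) was tested with limma 3.58.1 (lmFit and eBayes with trend, genotype as the only term) and adjusted by Benjamini-Hochberg over all genes tested. Fold changes on this scale understate changes of low genes. The count tests on recovered reads called 3563 genes higher and 3726 lower (DESeq2 1.42.0, Wald test) and 3857 and 3940 (edgeR quasi-likelihood). Ratios of 2 genes used exact two-sided permutation tests. Lengths and positions came from the GENCODE annotation of mm9, promoters from RefSeq, and shared stretches (at least 95% identity over 50 bases) from BLAST 2.17.0. Alternatives were other normalizations, tests, filters and pseudocounts (0.1 and 10), leaving out each library, the replicate number as a block, and, chosen after seeing the data, scaling by total reads and 2 other gene lengths (all annotated exons, shortest coding transcript). The steps were tested on simulated data.

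The 10 genes, though found by symbol alone, and the lists were chosen with earlier results of these data known. Named from each list were the largest rise and the largest fall among genes called and the gene with the highest mean normalized count, and any gene of a short list; further genes of the list of 11 LEM domain and membrane proteins were chosen after their values were seen. Replicates differed by more than counting noise in a chi-square comparison of their reads. Syne3 had no row, and Syne4 was matched through its older symbol.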

Additional observations from a re-analysis of the deposited data

How the results depend on the processing

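The counts of the 10 genes called (3 higher, 5 lower) ranged from 2 to 3 higher and from 4 to 5 lower with each library left out, and were 3 and 4 with scaling by total reads; none passed the study criteria under any of the 17 alternatives for fold changes. Over all genes tested, 3051 to 3817 were called higher and 3342 to 3896 lower with each library left out. Lmna, Lmnb1, Lmnb2, Emd, Sun1 and Syne2 kept their direction and call in all 17 alternatives. Lbr kept its direction and was called in none of them, at an adjusted p between 0.054 and 0.348 (limma, DESeq2 or edgeR, Benjamini-Hochberg). Tmpo, never called, changed sign with scaling by total reads (0.073) and without the first control library (0.034), and ranged from -0.12 to 0.034 with each library left out; the cause was not tested. The difference between genotypes in the log2 ratio of Lmnb1 to Lmnb2 ranged from -0.015 to 0.107 with each library left out, and the cause was not tested. With all annotated exons as the length, the share of Lmna per kb moved from 94.2% to 93.0% in control and from 95.6% to 94.7% in knockout cells, and that of Sun1 in the SUN pair from 51.4% to 42.9% and from 66.1% to 58.1%. With the shortest coding transcripts the share of Lmna was 97.8% and 98.3%, and that of Sun1 was 50.8% and 65.6%. With each library left out these shares ranged from 94.0% to 94.4%, 95.3% to 95.9%, 50.9% to 52.2% and 65.5% to 67.2%, in that order.

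Libraries of the 2 genotypes share replicate numbers, but the numbers did not pair them: the deviations of same-numbered libraries correlated at 0.0118, 0.0174 and 0.0212, and not every library correlated best with its own number. With the replicate block 3 of the 10 genes were called higher and 5 lower, and 4021 of all genes higher and 4196 lower.

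These values are limited by 3 libraries per genotype, by a table that does not separate the isoforms of Lmna, Tmpo and the nesprins, and by RNA as the only readout, which says nothing of protein or nuclear shape. At 88 to 194 reads, Syne2 was the least deeply covered of the 10 genes. Drug exposure cannot be told apart from genotype. Proliferation genes and fibroblast markers moved between the same groups, and their part in the lamina and LINC values was not tested.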
